A study of Homo sapiens with 2 samples.

Results

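The S100 proteins are small calcium-binding proteins, and 10 S100 genes were examined in MDA-MB-231 cells, an established human line of triple-negative breast cancer. The genes were S100A2, S100A3, S100A4, S100A6, S100A10, S100A11, S100A13, S100A14, S100A16 and S100P. They were found by matching the Ensembl identifiers of the deposited table to symbols of GENCODE 29, and all 10 were present among its 60774 identifiers. Per the labels, the series holds 1 RNA-seq library of vector control cells and 1 of cells made to over-express YWHAB, the gene of the adaptor protein 14-3-3 beta. Both came from the same line, grown in DMEM/F12 with serum. The protocol fields of both samples also describe an adipogenic induction with insulin, dexamethasone and isobutylmethylxanthine and a harvest of retinas, so the treatment given there was not taken as a fact about either library. The vector, its promoter, and whether the cells were a pool or a clone were not given in the sources used here. With 1 library per group there was no replicate check, no test was run, and a difference between these libraries is not shown to be a difference between the conditions.

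S100 proteins form dimers, and each subunit holds a pair of calcium-binding loops of the EF-hand type. On binding calcium most of them expose a surface that docks onto target proteins such as annexins, nonmuscle myosin and cytoskeletal linkers, and several are also released from cells and act on receptors such as RAGE. In breast cancer the family is best known for S100A4, which promotes metastasis in mouse models, and for S100P, which is linked to invasion. Most S100 genes sit together on chromosome 1q21 beside the genes of skin barrier proteins, while S100P lies on chromosome 4.

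The second loop is the canonical calcium site of the family, and its coding bases are shown to display how the members differ at the residues that hold the ion. The 36 bases of each loop are from GENCODE 29 transcripts (GRCh38), written 5′ to 3′ on the coding strand, with the codons of loop positions 1, 3, 5 and 12 in capitals.
S100A2 (chr1:153561511-153561546, minus strand): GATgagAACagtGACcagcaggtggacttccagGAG
S100A3 (chr1:153547766-153547801, minus strand): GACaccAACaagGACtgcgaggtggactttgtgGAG
S100A4 (chr1:153543843-153543878, minus strand): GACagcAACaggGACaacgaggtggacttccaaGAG
S100A6 (chr1:153534753-153534788, minus strand): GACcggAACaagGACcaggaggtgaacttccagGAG
S100A10 (chr1:151983244-151983279, minus strand): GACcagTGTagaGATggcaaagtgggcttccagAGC
S100A11 (chr1:152032743-152032778, minus strand): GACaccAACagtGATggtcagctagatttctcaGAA
S100A13 (chr1:153618967-153619002, minus strand): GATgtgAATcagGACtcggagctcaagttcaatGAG
S100A14 (chr1:153614951-153614986, minus strand): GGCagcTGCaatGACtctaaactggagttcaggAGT
S100A16 (chr1:153607612-153607647, minus strand): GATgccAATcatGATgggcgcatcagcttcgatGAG
S100P (chr4:6696938-6696973, plus strand): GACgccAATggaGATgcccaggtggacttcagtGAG
In 8 members the last codon was GAA or GAG, which encode glutamate, the residue that closes the loop around calcium. S100A10 and S100A14 carried another codon there and a cysteine codon at position 3. S100A14 also had GGC, a glycine codon, at position 1, where the other members had GAC or GAT. S100A10 is known to have lost calcium binding and to be held in an active shape without it. Between members, the translated coding sequences were 18.7% (S100A3 and S100A14) to 60.8% (S100A2 and S100A4) identical over aligned residues. No 50-base stretch of the annotated transcripts of 8 members occurred in a transcript of another gene. The exceptions were S100A11, with 1.9% shared with AC006483.1 (listed at 0 in both libraries), and S100A13, with 25.7% shared with S100A1 and AL162258.1.

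The libraries held 12375999 fragments (vector) and 13810668 fragments (YWHAB), worked out from the steps of the deposited FPKM values, which are fragments scaled to gene length and library total. YWHAB itself was at 239 FPKM in the vector library against 336 FPKM in the YWHAB library, a direction that matched the label. The ratio was 1.41, short of 2-fold. Vimentin (VIM), CD44 and AXL, which mark this mesenchymal line, were at 453 to 736 FPKM in the vector library and 668 to 998 FPKM in the YWHAB library, and the epithelial cadherin CDH1 had 3 and 0 fragments. The hormone receptor genes ESR1 and PGR were below 1 FPKM in both, while ERBB2 was at 32.8 and 49.97 FPKM and EPCAM at 1.21 and 1.53 FPKM. The ratios of CD44 (1.43), AXL (1.47) and ERBB2 (1.52) were above that of YWHAB, and those of VIM (1.17) and EPCAM (1.27) were below it. Of 10 adipocyte markers 2 (LPL and PPARG) averaged at least 1 FPKM over the libraries, and ADIPOQ and LEP were listed at 0. The adipocyte markers summed to 30.5 FPKM in the vector library against 22.5 FPKM in the YWHAB library. None of 12 retina markers averaged 1 FPKM (sums 1.36 and 1.38 FPKM). Of 6 keratinocyte markers 4 were listed at 0 and the list summed to 9.69 and 5.79 FPKM, of which KRT10 held 9.19 and 5.79 FPKM. Of 6 leukocyte markers CD14 averaged at least 1 FPKM (sums 3.65 and 2.59 FPKM). The part of these markers in the S100 values was not tested, and in bulk RNA fewer cells of a type and less RNA per cell cannot be told apart.

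The S100 family was dominated by the same 4 genes in both libraries. S100A6, S100A11, S100A16 and S100A10 made up 96.3% of the summed FPKM of the 10 members (vector) and 95.8% (YWHAB). The summed level of all members was 3169 FPKM in the vector library against 3012 FPKM in the YWHAB library. That was 0.445% and 0.435% of all FPKM. S100A6 alone made up 52.0% and 53.8% of the members' sum, and it ranked 38th and 29th among protein-coding genes by FPKM. The levels then stepped down through S100A4 to S100A2, S100A3, S100A13 and S100P, and S100A14 was at the limit of detection. A count of 0 would allow up to 3 fragments, which is 0.242 FPKM in the vector library against 0.217 FPKM in the YWHAB library for a gene of 1 kb. The order of the levels was almost the same in both libraries, except that S100A11 was the second in the vector library and the fourth in the YWHAB library, behind S100A16 and S100A10. In the vector library the 95% counting intervals of S100A11 and S100A16 overlapped, as did those of S100A3 and S100A13. In the YWHAB library those of S100A2 and S100A3 overlapped, as did those of S100P and S100A14. Overlap of such intervals does not show that the levels are equal. These intervals are exact Poisson intervals that cover counting error only, and levels between genes also depend on the gene length used for FPKM.

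**Figure D1:**
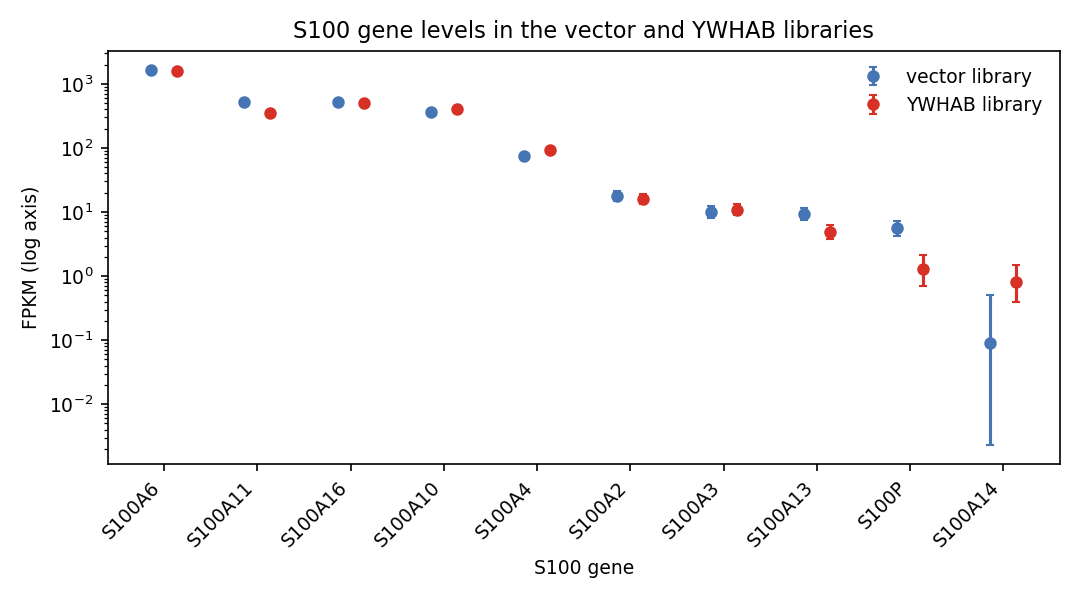
FPKM (log axis) of the 10 S100 genes in the vector library (blue) and the YWHAB library (red), ordered by the vector value. Points are the deposited values of 1 library each and bars are exact 95% Poisson counting intervals. S100A6 is at 1649 and 1621 FPKM. The bars of the libraries do not overlap at S100A11, S100A10, S100A4, S100A13 and S100P. The points of S100A14 lie apart and their bars overlap, while the 95% counting interval of their ratio (1.27 to 389) lies above equal levels.

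Across the family, 1 of the 9 members compared passed the 2-fold rule, and it was lower in the YWHAB library. Genes were compared where the 2 libraries averaged at least 1 FPKM, which left out S100A14. Differences are given as log2(FPKM + 1), YWHAB library minus vector library, which understates changes at low levels, and a difference of at least 1 in size was called 2-fold. S100P was the gene that passed, and 0 members were 2-fold higher. Over all 13420 genes compared, 1.97% were 2-fold lower and 0.686% were 2-fold higher. Among the 1448 protein-coding genes as short as the members (514 to 972 nt), 3.11% were 2-fold lower and 0.207% were 2-fold higher. The median difference of the 9 members was -0.04, against 0.03 over all genes compared and -0.07 over the protein-coding genes of their length range. The sign of the members' median turned with a correction for length and GC content (0.07). The corrected medians were 0.05 over all genes compared and 0.07 over the protein-coding genes of that length range. The 95% counting interval of the ratio lay below equal levels for S100P, S100A13 and S100A11 and above for S100A4 and S100A10. Over all genes compared 21.8% lay below and 27.8% above, so such intervals were common at this depth. The share below was 33.2% and the share above 18.4% in the length range of the members.

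**Figure D2:**
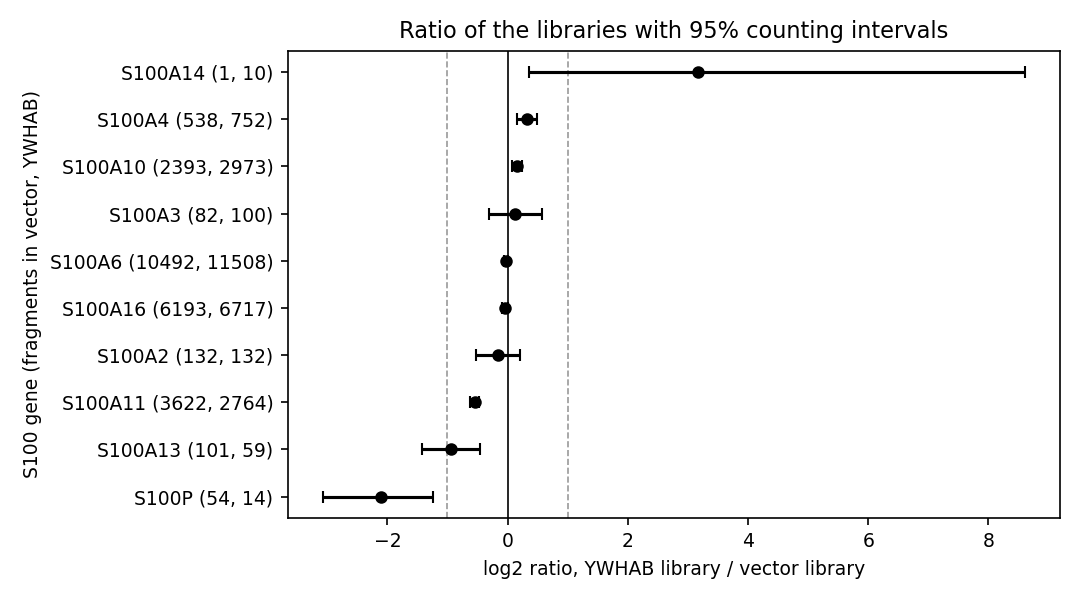
log2 ratio of FPKM, YWHAB library over vector library, for the 10 S100 genes with exact 95% counting intervals, beside the fragments in each library; dashed lines mark 2-fold. S100P lies below the lower dashed line with its whole interval, and the interval of S100A14, from 1 and 10 fragments, spans most of the axis.

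S100P, which binds ezrin and IQGAP1 and signals through RAGE when released, was the member furthest below the vector library. It was at 5.57 FPKM (54 fragments) in the vector library against 1.29 FPKM (14 fragments) in the YWHAB library. The vector value was thus the higher, and the counting intervals of the levels (4.18 to 7.26 and 0.707 to 2.17 FPKM) did not overlap. The ratio was 0.232 (95% counting interval 0.119 to 0.424), and the difference on the log2(FPKM + 1) scale was -1.52. Of all genes compared 0.738% had a difference this low, and of the protein-coding genes in the members' length range 1.52%. The length behind the FPKM of S100P could be 392, 784 or 1176 nt, all multiples within the range of its annotated transcripts, and 784 nt was nearest to their mean. With 392 nt the fragments would be 27 and 7 and the interval 0.0854 to 0.547, still below equal levels. The gene spans bases 6693069 to 6697170 of chromosome 4 (GRCh38, plus strand). A filter of at least 5 FPKM on the mean removed the gene.

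S100A13 takes part in the release of FGF1 and of interleukin 1 alpha (IL1A) from cells, which both lack a signal peptide. It was at 9.38 FPKM (101 fragments) in the vector library against 4.91 FPKM (59 fragments) in the YWHAB library, and these levels did not overlap within their counting intervals. The ratio was 0.523 (95% counting interval 0.373 to 0.729), and the difference, -0.81, was short of 2-fold. A difference this low was found in 3.28% of all genes compared and in 4.97% of those in the length range. S100A13 occupies 153618787 to 153631360 of chromosome 1 (minus strand). The value is uncertain, because 33.5% of the exon bases of S100A13 lie within exons of S100A1 on the opposite strand or AL162258.1 on the same strand, and whether reads were counted by strand was not given in the sources used here. AL162258.1 was listed at 0 in both libraries. S100A1 had 6 and 9 fragments. Of the cargoes, FGF1 was at 8.51 FPKM (vector) and 7.92 FPKM (YWHAB), and IL1A at 50.2 and 22.2 FPKM, a difference of -1.14 that passed the 2-fold rule.

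S100A11, a partner of annexin A1 with roles in membrane repair and growth control, was the abundant member with the lowest ratio. It was at 523 FPKM (3622 fragments) in the vector library against 357 FPKM (2764 fragments) in the YWHAB library. The counting intervals of the levels, 506 to 540 and 344 to 371 FPKM, lay well apart. The ratio was 0.684 (95% counting interval 0.651 to 0.719) and the difference was -0.55, short of 2-fold. S100A11 occupies 152032506 to 152047907 of chromosome 1 (minus strand). Of all genes compared 7.56% were this low, and 10.8% in the length range of the members. Corrected for length and GC content, the difference was -0.29. ANXA1, which encodes its partner, was at 402 and 310 FPKM (difference -0.37), and the FPKM ratio of S100A11 to ANXA1 was 1.30 (vector) and 1.15 (YWHAB).

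S100A4, known as metastasin, binds the tail of nonmuscle myosin IIA and takes myosin filaments apart. Its ratio was the highest among the members compared. It was at 75.1 FPKM (538 fragments) in the vector library against 94.0 FPKM (752 fragments) in the YWHAB library. The YWHAB value was the higher and the counting intervals, 68.9 to 81.7 and 87.4 to 101 FPKM, did not overlap. The ratio was 1.25 (95% counting interval 1.12 to 1.40) and the difference of 0.32 was short of the 2-fold rule, with 18.4% of all genes compared and 11.8% of those in the length range as high. Corrected for length and GC content, the difference was 0.56. S100A4 occupies 153543613 to 153550136 of chromosome 1 (minus strand). MYH9, the heavy chain of nonmuscle myosin IIA, was at 1356 and 2251 FPKM, a difference of 0.73. The FPKM ratio of S100A4 to MYH9 was 0.0554 (vector) and 0.0418 (YWHAB). Such a ratio between genes depends on the lengths behind the FPKM, here 579 nt for S100A4 and 1208 nt for MYH9.

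S100A10, called p11, forms a tetramer with annexin A2 that binds plasminogen activator and AHNAK at the cell membrane. It was at 364 FPKM (2393 fragments) in the vector library against 405 FPKM (2973 fragments) in the YWHAB library. These counting intervals, 349.7 to 379 and 391 to 420.2 FPKM, did not overlap. The ratio was 1.11 (95% counting interval 1.05 to 1.18) and the difference was 0.15, or 0.44 when corrected for length and GC content. Of all genes compared 34.5% were as high as the uncorrected value, and 24.7% of those in the length range. S100A10 occupies 151982915 to 151994390 of chromosome 1 (minus strand). ANXA2 was close to even at 2100 and 2224 FPKM (difference 0.08). The FPKM ratio of S100A10 to ANXA2 was 0.173 and 0.182. AHNAK, a very large scaffold protein, was at 513 and 1071 FPKM, and its difference of 1.06 passed the 2-fold rule but was 0.91 after correction for length and GC content. PLAT, which encodes tissue plasminogen activator, was at 533 and 404 FPKM.

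S100A6 and S100A16 were the abundant members with near-even values. S100A6, or calcyclin, which binds the ubiquitin ligase adaptor CACYBP, was at 1649 FPKM (10492 fragments) in the vector library against 1621 FPKM (11508 fragments) in the YWHAB library. S100A16, a widely expressed member, was at 515 FPKM (6193 fragments) and 500.4 FPKM (6717 fragments). With the libraries scaled to their fragment totals, their ratios were 0.983 (95% counting interval 0.957 to 1.01) and 0.972 (0.939 to 1.01). Neither interval excluded equal levels at that scaling. The sign of S100A6 was not stable: its difference of -0.02 became 0.02 with both libraries rescaled to equal FPKM totals and 0.20 after correction for length and GC content. That of S100A16, -0.04, became 0.02 after the same correction. With the libraries rescaled by their median ratio, a log2 shift of 0.04, the differences were -0.06 (S100A6) and -0.08 (S100A16). That shift exceeds the upper bounds of their intervals on the log2 scale (0.013 and 0.009), so both would then lie below equal levels. CACYBP was at 133 and 161 FPKM. For S100A6, 2.37% of the exon bases overlap BX470102.1 on the opposite strand.

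S100A2 and S100A3 were low, and neither differed between the libraries beyond counting error. S100A2, a member found largely in the nucleus, was at 17.7 FPKM in the vector library against 15.9 FPKM in the YWHAB library, from 132 fragments in each. S100A3, a cysteine-rich member best known from the hair cuticle, was at 10.0 FPKM (82 fragments) and 10.95 FPKM (100 fragments). The ratios were 0.896 (95% counting interval 0.699 to 1.15) for S100A2 and 1.09 (0.808 to 1.48) for S100A3. A difference within these bounds was not detectable at this depth. After the length and GC correction the difference of S100A2 was 0.07, against -0.15 uncorrected, and that of S100A3 was 0.28, against 0.12 uncorrected.

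S100A14 was barely detected. It had 1 fragment in the vector library (0.0914 FPKM) and 10 fragments in the YWHAB library (0.819 FPKM). The ratio was 8.96 with a 95% counting interval from 1.27 to 389. The level in the vector library lay below the floor that 3 fragments allow. The mean was below 1 FPKM, so the gene entered no count of calls in the main setting.

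The median difference of protein-coding genes was -0.06 in the shortest of 5 groups of about equal size by length and 0.12 in the longest. The members' lengths behind the FPKM, as chosen here, ran from 514 nt (S100A6) to 972 nt (S100A16). All of these fell in the shortest group, which ended at 1093 nt. Of the other lengths possible, 1176 nt (S100P) and 1740 nt (S100A13) lie above the end of the shortest group. S100P, S100A13, S100A11 and S100A2 lay below the median of that group, and S100A4, S100A10, S100A3, S100A6 and S100A16 lay above it. After correction for length and GC content S100P remained 2-fold lower, at -1.36, and S100A13 was at -0.70.

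**Figure D3:**
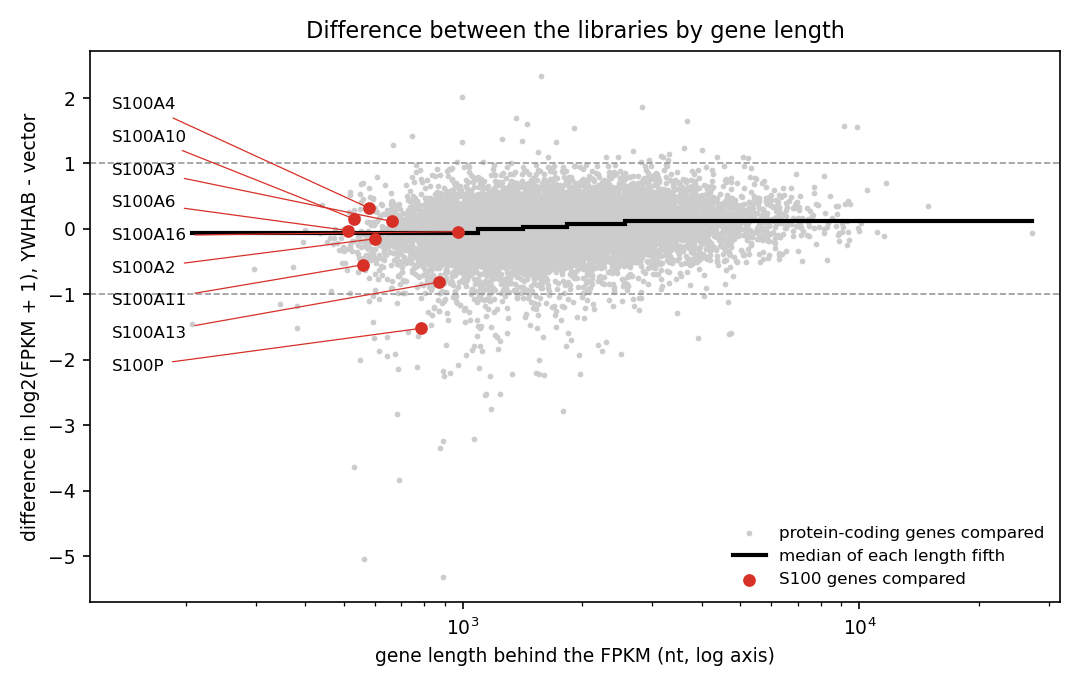
Difference in log2(FPKM + 1) between the libraries against gene length (log axis) for 11518 protein-coding genes compared (grey) and the 9 S100 genes compared (red); black lines are the medians of 5 groups of about equal size by length, dashed lines mark 2-fold. The S100 genes lie at the short end, with S100P below the lower dashed line.

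The remaining S100 genes were close to silent. Of 11 other family members 6 were listed at 0 in both libraries, among them the inflammatory genes S100A8, S100A9 and S100A12. S100A5 was the single member compared, at 1.33 FPKM (10 fragments) and 1.79 FPKM (15 fragments), with a counting interval of the ratio from 0.565 to 3.35. S100A1, S100B, S100G and S100Z had at most 9 fragments in a library. The 7 fused S100 genes, which encode skin proteins such as filaggrin, all averaged below 1 FPKM, and FLG had 43 and 99 fragments.

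Along chromosome 1q21 the members' differences did not share a direction with each other or with the genes beside them. Within 500 kb of a member on chromosome 1 there were 50 protein-coding genes without an S100 symbol, among them the 7 fused S100 genes, of which 0 were compared. Of the 50 genes 18 were compared, and 0 passed the 2-fold rule in either direction, against 1.97% lower and 0.686% higher over all genes compared. Their median difference was -0.03 and they ranged from -0.53 (RPS27, a ribosomal protein gene, at 357 and 247 FPKM) to 0.39 (INTS3, an Integrator subunit gene, at 21.4 and 28.3 FPKM). TUFT1 was at 20.1 and 14.1 FPKM, CGN at 1.66 and 1.06 FPKM, SNAPIN at 28.0 and 22.3 FPKM and CHTOP at 37.6 and 46.0 FPKM. CGN had 31 and 22 fragments, and its counting interval of the ratio, 0.351 to 1.13, spanned equal levels. S100A13 lies between S100A16 (difference -0.04) and CHTOP (0.28) in this order. The sign of the median turned with equal FPKM totals (0.01) and over genes averaging at least 5 FPKM (0.003).

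**Figure D4:**
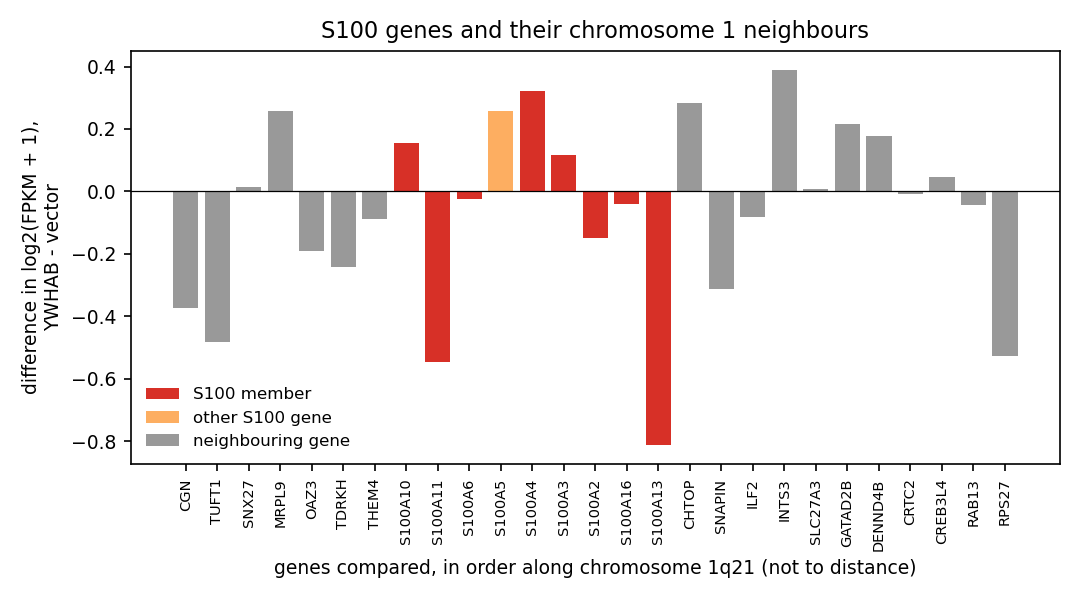
Difference in log2(FPKM + 1), YWHAB library minus vector library, for the genes compared around the chromosome 1 S100 genes, in genomic order but not to distance. S100 members are red, S100A5 orange and neighbouring genes grey; bars of both directions alternate, from -0.81 at S100A13 to 0.39 at INTS3.

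The annexins and the partner genes of the family were also mixed. Of 13 annexins, which bind membranes when calcium is present, 11 were compared and 0 passed the 2-fold rule in either direction. Their median difference was -0.13, and -0.02 after correction for length and GC content, with a range from -0.37 (ANXA1) to 0.36 (ANXA8). ANXA7 was at 79.4 and 64.8 FPKM, ANXA9 at 5.17 and 4.07 FPKM, ANXA11 at 79.3 and 93.1 FPKM and ANXA5 at 735 and 649 FPKM. ANXA8, at 2.75 and 3.82 FPKM (60 and 93 fragments), has the near-identical copy ANXA8L1, so how reads were split between them is uncertain. The counting intervals of the ratio of ANXA8 (0.993 to 1.95) and ANXA9 (0.544 to 1.14) spanned equal levels. Of 29 genes listed as binding partners, cargoes or receptors of S100 proteins 25 were compared, with AHNAK 2-fold higher, IL1A 2-fold lower and a median of 0.09. Over all genes compared 0.686% were 2-fold higher, 1.97% were 2-fold lower and the median was 0.03. MCAM, an adhesion molecule and receptor of S100A8 and S100A9, was at 271 and 173 FPKM, and the receptor TLR4 at 3.98 and 6.02 FPKM. The receptor gene AGER, which encodes RAGE, was at 4.67 and 3.98 FPKM (61 and 58 fragments), and its interval of the ratio, 0.584 to 1.24, spanned equal levels.

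Among 37 other EF-hand genes 32 were compared, with 1 lower by the 2-fold rule, 0 higher and a median of -0.01. The sign of that median turned with equal FPKM totals (0.03) and with length and GC correction (0.01). By the same rule 1.97% of all genes compared were lower and 0.686% higher. LCP1, which encodes the actin bundler L-plastin, was at 65.7 FPKM (1300 fragments) in the vector library against 13.2 FPKM (291 fragments) in the YWHAB library. On the log2(FPKM + 1) scale its difference of -2.23 was larger in size than that of any S100 gene. As ratios, LCP1 (0.201, 95% counting interval 0.176 to 0.228) and S100P (0.232, 0.119 to 0.424) had overlapping intervals. RCN3 and CALU, chaperone-like proteins of the secretory pathway, were at 95.5 and 57.8 FPKM and at 252 and 166 FPKM. EFHD2 was at 135 and 200 FPKM, PDCD6 at 10.0 and 14.7 FPKM and the actin crosslinker ACTN4 at 842 and 1191 FPKM. The calmodulin genes CALM2 and CALM3 were near even, at 264 and 266 FPKM and at 332 and 329 FPKM.

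**Figure D5:**
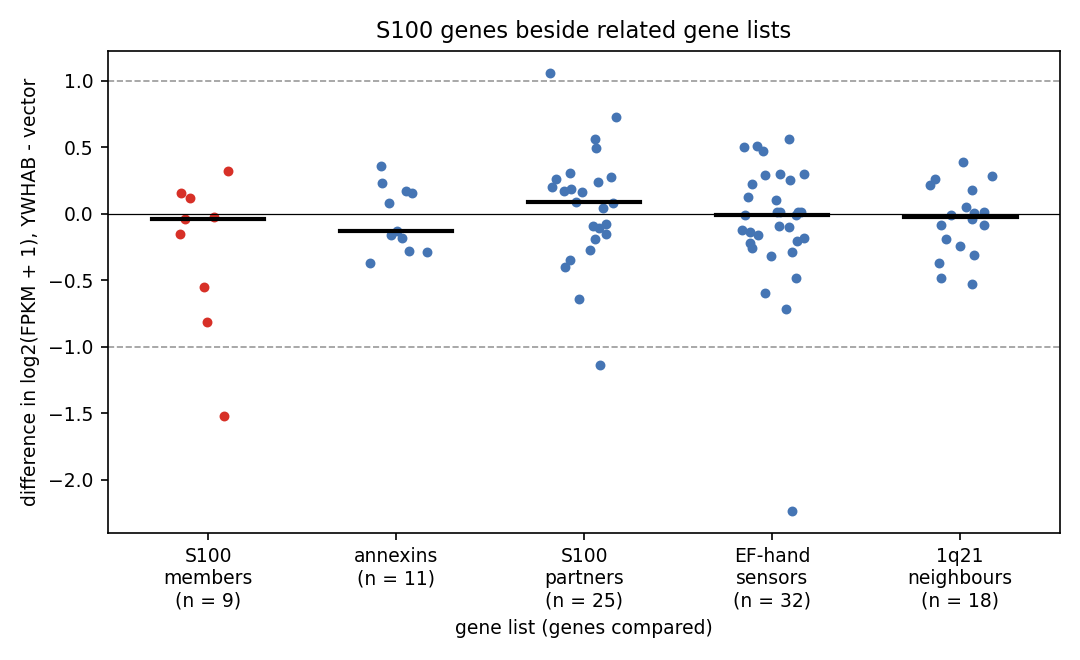
Difference in log2(FPKM + 1), YWHAB library minus vector library, for each gene compared in 5 lists; black bars are medians and dashed lines mark 2-fold. The S100 members (red) spread from -1.52 to 0.32 around a median of -0.04, and 3 genes of the other lists lie past a dashed line.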

How the data were processed

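Of the 2 RNA-seq libraries compared, 1 was from vector control MDA-MB-231 cells and 1 from MDA-MB-231 cells over-expressing YWHAB. The authors deposited FPKM values per Ensembl gene for both libraries in 1 table. HISAT2 2.0.5 and the build hg38 (GRCh38) are named in the submitters' processing notes; the counter, annotation, strand handling and filters were not given in the sources used here. GENCODE 29 matched 96.3% of the 60774 identifiers and gave symbols, coordinates and transcripts.

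Fragments were worked out from the steps of the FPKM values: all 26770 genes above 0 gave whole counts over a whole length (relative tolerance 1e-12), and these summed to 99.9% of each total. For 14.1% of genes the smallest whole length was multiplied to come closest to the mean length of the annotated transcripts, among them S100A6, S100A11 and S100P. S100A10 and S100A13 each had a second multiple within the range of their annotated transcripts. Ratios do not depend on the choice, but interval widths do. Of 7005 genes with 1 annotated transcript, 86.7% gave a whole count (within 1e-06 fragments) in the vector library with the length of that transcript; the fragment total had been set by this share. Ratio intervals are exact Clopper-Pearson intervals (95%) on the split of fragments; since PCR can copy a molecule, all intervals and floors cover counting error alone. The length and GC correction was a spline regression (5 degrees of freedom each) over protein-coding genes.

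Named genes were all members and, in every other list, up to 6 genes compared with the largest differences plus any past the 2-fold rule. A gene of the partner list is not reported here by name. Any other gene named, such as FGF1, PLAT, CACYBP, AGER, CALM2, CALM3, ANXA2, ANXA8L1 and FLG, fell outside this rule and was chosen after its values were seen, for its role or because it overlaps or resembles a named gene; the same holds for cell type markers and further S100 genes. The members and lists were chosen with earlier results of these data known. The 7 alternatives changed the pseudocount, filter, scaling, length and GC correction, or gene class. Loops were aligned with MAFFT, and Python 3.11.15 with scipy 1.17.1 was used.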

Additional observations from a re-analysis of the deposited data

How the results depend on the processing

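No paired analysis was possible because each group holds 1 library. S100P was 2-fold lower under the alternatives that kept it; with a mean of at least 5 FPKM it was left out and 0 members were 2-fold lower. No member was 2-fold higher under any of the 7 alternatives. S100A14 was compared only with no filter, where its difference at the pseudocount of 1 was 0.74. With a pseudocount of 0.1 it was left out. The count of all genes 2-fold higher, 92 in the main setting, was 222 with a pseudocount of 0.1, 155 with no filter, 40 with a mean of at least 5 FPKM, 184 after length and GC correction and 34 in protein-coding genes only. The count 2-fold lower, 265, was 471, 112 and 167 with a pseudocount of 0.1, a mean of at least 5 FPKM and protein-coding genes only. The annexin median went from -0.13 to -0.016 with length and GC correction. The cause of these changes was not tested, apart from the settings that compare fewer or more genes. Depth limits S100A14, S100P, S100A3 and S100A13, and the lack of a second library limits every value.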
